A study of Mus musculus with 1049 samples.

Results

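The levels of 5 serpins, protease inhibitors and their relatives, were followed in single fibroblasts of mouse skin: Serpina3c, Serpina3g, Serpina3n, Serpinf1 and Serpine2. They are serpins other than the complement inhibitor Serping1 and the collagen chaperone Serpinh1, chosen with earlier results of these data known. All 5 were among the 51777 genes common to the plates, of which 68 have a symbol that starts with Serpin. The cells came from C57Bl/6 mice of 3 ages, called newborn (1.5 to 2.5 days old), young (2 months) and old (18 months), and the labels name no treatment and no altered gene. Each age was collected in experiments 1 and 2. Cells were sorted singly with antibodies that include CD45, CD117, EpCam, CD31, CD34 and Pdgfra after the subdermis and growing-hair patches were removed. The labels give another antibody panel for subpopulations of newborn skin and do not say which panel was used for the newborn cells here. They mention female littermates for those subpopulations and name no mouse, so how many animals stand behind a value is not known.

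Each cell was read by Smart-seq2, a full-length single-cell RNA method, on plates that held all 3 ages. Of 861 wells on 9 plates (5 in experiment 1 and 4 in experiment 2), 735 cells were kept, with 246349 to 4331293 reads per cell. These were 249 newborn, 246 young and 240 old cells, or 97.3%, 85.7% and 75.5% of the wells of each age. Shares of cells are given over the kept cells. Adding the reads of the kept cells by age and experiment made 6 sums (119682449 to 195324769 reads) and n = 2 per age. The spread given as SD is that between the 2 experiments, and p-values measure only that spread, which may be technical. A level is given in CPM, counts scaled to a sum of 1e6 reads per library. Levels of the 6 sums include TMM factors, while those of plates and single cells do not, so these scales differ. The factors were larger for newborn than for adult sums, which lowers newborn and raises adult levels in the sums. Where genes are compared with each other, the level is in CPM per kb of the gene's exons. The label dermal fibroblast was checked against marker genes: 8 fibroblast markers summed to 67120 to 187900 CPM. The 5 immune markers summed to at most 6.65 CPM, with Ptprc at 0 in all sums, and the 5 endothelial markers to 15.1 to 90.7 CPM. The 6 macrophage markers summed to 170.1 and 45.7 CPM in young cells, 11.5 and 26.8 in old cells and 2.09 and 0 in newborn cells, with C1qa, C1qb and Adgre1 at 0 in all of them. Epithelial markers summed to 18.9 to 70.9 CPM, mural markers to 0 to 95.8 CPM, Schwann and melanocyte markers to at most 9.27 CPM, adipocyte markers to at most 2.55 CPM and mast cell markers to at most 0.161 CPM; the part of these cell types in the serpin levels was not tested.

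Serpins are inhibitors that trap a protease as it cuts an exposed reactive centre loop, after which inhibitor and enzyme stay bound. The letters of that loop, near the carboxyl end of the protein, set which protease is caught, and some family members no longer inhibit proteases at all. Mice carry a row of Serpina3 genes on chromosome 12 in place of the single human SERPINA3, a plasma acute phase protein. Serpina3n is a secreted inhibitor of serine proteases that include leukocyte enzymes, Serpina3g acts inside cells on lysosomal cysteine proteases, and Serpina3c is a less studied relative. Serpinf1 encodes PEDF, a secreted non-inhibitory serpin known for blocking vessel growth, and Serpine2 encodes protease nexin-1, a cell-surface inhibitor of thrombin, urokinase and other proteases.

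On GRCm38 with GENCODE M21 genes, Serpina3c lies on the minus strand of chromosome 12 (chr12:104146382-104153870), Serpina3g (chr12:104236245-104241939) and Serpina3n (chr12:104406729-104414329) on its plus strand, Serpinf1 on the minus strand of chromosome 11 (chr11:75409769-75422701) and Serpine2 on the minus strand of chromosome 1 (chr1:79794197-79861180). None of the 5 overlaps another gene of the annotation. The coding sequences of Serpina3c and Serpina3n are identical at 85.4% of 1245 aligned bases, and those of Serpina3g and Serpina3n at 84.3% of 648. The Serpina3g transcript used has 744 coding bases, against 1251 in Serpina3c and 1254 in Serpina3n. Serpinf1 and Serpine2 match the Serpina3 genes and each other at 44.3 to 47.9% of aligned bases. The ungapped stretch of 60 coding bases that differs most between the 3 Serpina3 genes is shown because it reads into the reactive centre loop, the part of a serpin that meets the protease. It covers coding bases 1100 to 1159 of Serpina3c and Serpina3n and 494 to 553 of Serpina3g, and capitals mark bases that are not the same in all 3, where 24 bases are shared.
Serpina3c: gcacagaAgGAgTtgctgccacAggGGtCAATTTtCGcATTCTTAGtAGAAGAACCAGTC
Serpina3g: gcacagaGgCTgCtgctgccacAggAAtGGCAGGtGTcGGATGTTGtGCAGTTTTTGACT
Serpina3n: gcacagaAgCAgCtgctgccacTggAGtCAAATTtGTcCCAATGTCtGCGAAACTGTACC

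How near-identical reads were assigned is not given in the sources used here. Of all stretches of 50 bases in the transcripts used, 4.25% of those of Serpina3c, 16% of Serpina3g and 6.90% of Serpina3n occur also in a transcript of another gene, against 0 for Serpinf1 and Serpine2. Serpina3g shares most of them with Serpina3h (152 of 1754 stretches) and Serpina3f (117), so low counts of these genes are uncertain.

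The promoters of the 3 Serpina3 genes were searched for motifs, since these genes had few or no reads in newborn cells and many in adult cells, and those of Serpina3g and Serpina3n are shown. The windows run from 250 bases before to 50 bases after the RefSeq start (GRCm38.p6), and capitals mark matches on either strand to 7 short motifs. These were the STAT motif TTCNNNGAA, the interferon motif (GAAA, any 2 bases, GAAA), the AP-1 motif TGANTCA, the NF-kB motif (GGG, any 2 bases, TTTCC), the TATA box TATAAA, the GC box GGGCGG and the glucocorticoid receptor motif TGTTCT. The Serpina3g window (plus strand, chr12:104235897-104236196) and the Serpina3n window (plus strand, chr12:104406458-104406757) were:
Serpina3g: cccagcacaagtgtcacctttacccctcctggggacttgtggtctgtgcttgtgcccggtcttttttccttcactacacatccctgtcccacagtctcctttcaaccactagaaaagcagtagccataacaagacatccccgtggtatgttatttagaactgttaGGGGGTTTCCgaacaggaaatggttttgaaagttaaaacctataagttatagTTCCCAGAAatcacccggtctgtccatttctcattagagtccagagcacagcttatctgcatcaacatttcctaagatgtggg
Serpina3n: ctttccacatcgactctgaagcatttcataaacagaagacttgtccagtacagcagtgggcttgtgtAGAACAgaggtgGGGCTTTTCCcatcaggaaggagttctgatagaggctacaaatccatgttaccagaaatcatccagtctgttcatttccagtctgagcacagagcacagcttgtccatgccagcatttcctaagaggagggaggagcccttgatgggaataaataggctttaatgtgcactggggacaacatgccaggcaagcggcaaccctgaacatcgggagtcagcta

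Serpina3g holds a STAT match 33 bases before the start and an NF-kB match 85 bases before it, motifs found in 8.30% and 1.63% of 32851 promoter windows of the same length. Serpina3n holds an NF-kB match 171 bases and a TGTTCT match 183 bases before the start, the latter in 19.0% of all windows. The Serpina3c window (minus strand, chr12:104153823-104154122) is identical to that of Serpina3n at 93.5% of 294 aligned bases and holds TATAAA (13.6% of all windows) and TGTTCT, but no NF-kB match. Serpina3g and Serpina3n windows align at 63.3% identity. The 40 bases around the Serpina3g STAT match are shown with their best ungapped match in the other promoters, with the 9 bases of the motif in capitals.
Serpina3g: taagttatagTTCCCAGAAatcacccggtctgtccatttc
Serpina3c: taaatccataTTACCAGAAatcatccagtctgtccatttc
Serpina3n: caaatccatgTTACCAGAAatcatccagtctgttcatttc

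Both relatives carry C13A, counted from 1 at the left end of this stretch, and so lack the STAT letters there. Serpina3c is the same as Serpina3g at 31 of these 40 bases and Serpina3n at 30. The Serpinf1 window held none of the 7 motifs. The Serpine2 window held 6 GC boxes, a motif found in 35.7% of all windows. Of these boxes 1 began 161 bases before the start and the others 55 to 13 bases before it. These matches describe letters only; no binding was measured.

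Serpina3n had almost no reads in newborn cells and was high in adult cells. Its level was 0.0387 and 0.155 CPM in newborn cells of experiments 1 and 2, 1432 and 1335 CPM in young cells and 2100 and 1748 CPM in old cells. All newborn reads together were 30, in 13 of 249 cells. The adult values lay far above the newborn values with no overlap. The increase from newborn to young was 13.85 ± 0.88 (SE) on the log2 scale, with an adjusted p of 0.0105 by edgeR's quasi-likelihood test (Benjamini-Hochberg over 16684 genes). The SE of a log2 fold change by edgeR is here its size divided by the square root of the test's F value. From newborn to old it was 14.32 ± 0.90 (adjusted p = 0.0103 by edgeR).

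Serpina3c showed the same contrast between newborn and adult cells at a lower level. It was listed at 0 and 0.0281 CPM in newborn cells, 451.6 and 708.2 CPM in young cells and 400.4 and 578.6 CPM in old cells. The newborn value rests on 4 reads in 2 cells, which as a count of reads over both sums allow 0.00312 to 0.0293 CPM (exact Poisson 95% interval, counting error only). Experiment 2 was higher than experiment 1 at both adult ages. The log2 fold change was 15.46 ± 1.22 in young against newborn (adjusted p = 0.0198 by edgeR) and 15.22 ± 1.21 in old against newborn (adjusted p = 0.0184 by edgeR). With so few newborn reads these sizes depend on the prior count. When a sum was left out, the value in young against newborn cells ran from 14.29 to 19.54, wider than its SE.

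Serpina3g, the inhibitor of lysosomal proteases, had 0 reads in all 249 newborn cells. It reached 27.3 and 26.2 CPM in young cells and 120.8 and 253.6 CPM in old cells, so the sums of the 3 ages did not overlap. Set against a floor of 3 reads for the newborn sums together, it was at least 3113-fold higher in young and at least 21780-fold higher in old cells. Both differences passed the test (adjusted p = 0.0247 and 0.0184 by edgeR). Its fitted log2 fold changes are no bounds, since they depend on the prior count.

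Serpinf1 was the only one of the 5 that was both abundant in newborn cells and higher in adult cells. It had 724 and 764.4 CPM in newborn cells, 5350 and 4460 CPM in young cells and 4117 and 2943 CPM in old cells. It was 6.59-fold higher in young than in newborn cells (log2 fold change 2.72 ± 0.24, adjusted p = 0.025 by edgeR). In old cells it was 4.74-fold higher than in newborn cells (2.25 ± 0.24, adjusted p = 0.0344 by edgeR).

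Serpine2 stayed low at every age. Its level was 37.4 and 17.6 CPM in newborn cells, 19.4 and 51.4 CPM in young cells and 48.6 and 26.8 CPM in old cells. The ranges of the 3 ages overlapped, and no comparison passed the test (log2 fold change 0.36 ± 0.71 for young and 0.46 ± 0.71 for old against newborn, adjusted p = 0.932 and 0.88 by edgeR). The experiments differed by as much as 2.65-fold within an age, and the order of the ages turned with the experiment.

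**Figure D1:**
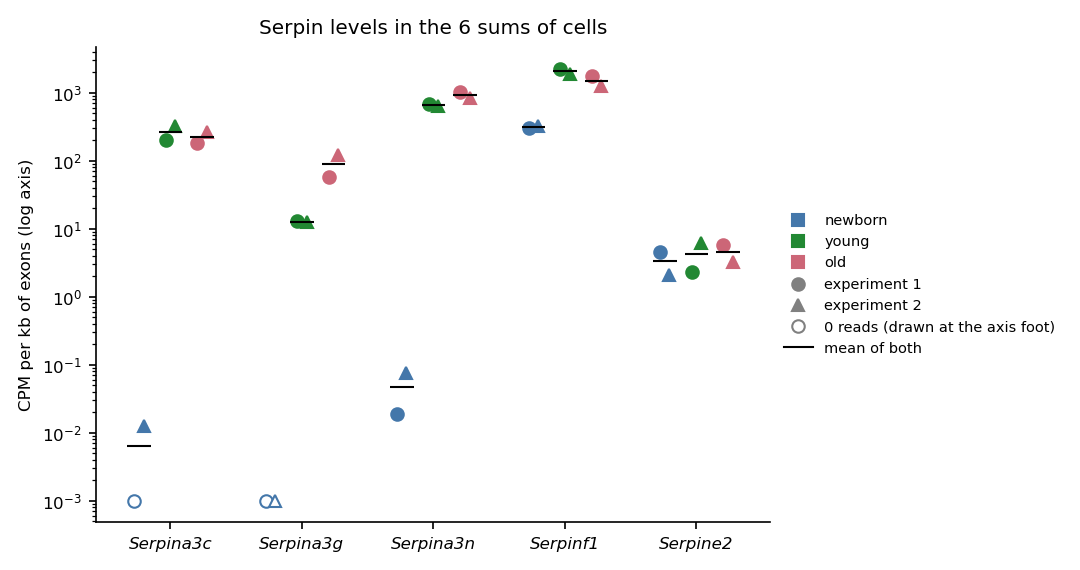
Level of each serpin in the 6 sums of cells, in CPM per kb of exons on a log axis; circles are experiment 1, triangles experiment 2, black lines the mean of both, and open symbols sums with 0 reads. The Serpina3 genes rise from means of at most 0.0468 in newborn cells to means of 12.7 or more in adult cells, Serpinf1 starts at 315.5 in newborn cells, and Serpine2 stays between means of 3.32 and 4.55.

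So 4 of the 5 serpins were higher in young and 4 in old than in newborn cells. Of all genes tested 0.719% and 0.797% were called higher in these comparisons (0.0599% and 0.138% lower, 0.779% and 0.935% in either direction). The 5 were chosen with earlier results of these data known, so the contrast is no test of the serpin family. Of 21 other serpins tested, 1 was called higher in each of these comparisons. The median log2 fold change of these 21 was 3.22 in young and 3.31 in old against newborn cells, against -0.07 and -0.08 over all genes. Each call of a member rests on 2 sums per age, and both comparisons share the newborn sums. With the experiment as a block the adjusted p-values were 0.0505 (Serpina3c and Serpina3n), 0.0526 (Serpinf1) and 0.0932 (Serpina3g) in young against newborn cells. In old against newborn cells they were 0.0511 (Serpina3c and Serpina3n), 0.0663 (Serpinf1) and 0.0694 (Serpina3g), so that none passed. Leaving out any of the 4 adult sums also ended all these calls. The calls of Serpina3g and Serpinf1 ended without either newborn sum too, while those of Serpina3c and Serpina3n held. Over these fits the adjusted p in young against newborn cells ran from 0.0372 to 0.111 for Serpina3c, 0.0324 to 0.0858 for Serpina3n, 0.0714 to 0.155 for Serpina3g and 0.074 to 0.14 for Serpinf1. In old against newborn cells it ran from 0.0376 to 0.13, 0.0309 to 0.0998, 0.0527 to 0.11 and 0.0998 to 0.151.

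Per kb of exons the order of the levels was the same at both adult ages: Serpinf1, Serpina3n, Serpina3c, Serpina3g, Serpine2. In young cells the means were 2079 ± 266.6, 670.1 ± 33.2, 262 ± 82.0, 12.7 ± 0.346 and 4.27 ± 2.73 CPM per kb (SD, n = 2). In old cells they were 1496 ± 352, 932.3 ± 120.6, 221.2 ± 56.9, 88.9 ± 44.6 and 4.55 ± 1.86 CPM per kb. Neighbours in this order did not overlap between the experiments at either age on this scale. All annotated exons of Serpine2 together make 8287 bases, against 2210 in the transcript used for its sequence. In CPM without length, young cells had a mean of 35.4 for Serpine2 and 26.8 for Serpina3g. The order of these genes in young cells thus depends on the length chosen. Serpina3g came closer to Serpina3c in old cells, where it remained below it. In newborn cells Serpinf1 (315.5 ± 12.1 CPM per kb) stood above Serpine2 (3.32 ± 1.70), and the Serpina3 genes had at most 0.0468.

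Between young and old cells no member passed the test, and neither did any of the 16684 genes by edgeR (0% called). At an unadjusted p under 0.05, edgeR listed 810 genes and 1 member, Serpina3g. DESeq2 called 1048 genes and Serpina3g among them, and limma on per-cell means called 0. Serpina3g was 7.0-fold higher in old cells (log2 fold change 2.81 ± 0.50, unadjusted p = 0.00474, adjusted p = 0.906 by edgeR). Its adjusted p by DESeq2 was 1.56e-05, and over the other alternatives it ran from 0.614 to 1.00. The log2 ratio of old to young was 2.15 in experiment 1 and 3.27 in experiment 2.

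The other members differed less between young and old cells. Serpinf1 was 1.39-fold lower in old cells (-0.47 ± 0.23, adjusted p = 0.91 by edgeR), with log2 ratios of -0.38 and -0.60 in the 2 experiments. Serpina3n was 1.39-fold higher (0.48 ± 0.52, adjusted p = 1.0 by edgeR), with log2 ratios of 0.55 and 0.39. Serpina3c (-0.24 ± 0.66) and Serpine2 (0.09 ± 0.71) differed by less than their errors. For Serpine2 the 2 experiments pointed opposite ways, at 1.32 and -0.94.

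Because every plate held all 3 ages, the same order can be read plate by plate; the labels do not say whether plates of an experiment hold separate animals. Serpina3n was higher in old than in young cells on 9 of 9 plates, and Serpinf1 was lower on 9 of 9. Serpina3g was higher on 8 of 9 plates, and Serpina3c lower on 7 of 9. The exception for Serpina3g was a plate of experiment 1 with 59.8 CPM in young and 50.4 CPM in old cells. Its young level was uneven: 3 of the 9 plates had under 0.06 CPM in young cells, against 41.8 to 348.3 CPM in old cells of the 9 plates. Serpina3n had 742.3 to 1392 CPM per plate in young and 1301 to 2104 CPM in old cells, so that the ranges overlapped across plates. Serpinf1 ranged from 3420 to 5248 CPM in young and from 2155 to 4187 CPM in old cells. Plate levels carry no TMM factors, so the young sum of experiment 1 (5350 CPM with its factor) lies above every plate in it. Serpine2 was higher in old than in young cells on 4 plates and lower on 5.

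**Figure D2:**
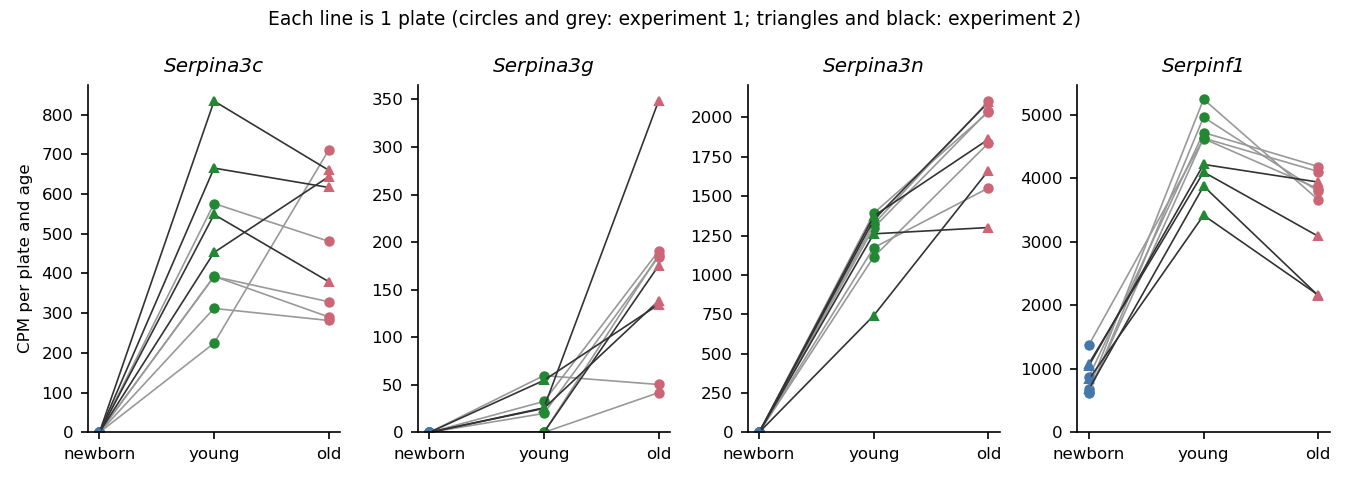
Level of 4 serpins by plate and age, in CPM without TMM factors on a linear axis. Each line joins the 3 ages of a plate. From young to old, all 9 lines climb for Serpina3n, all 9 descend for Serpinf1, 8 climb for Serpina3g and 7 descend for Serpina3c.

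The share of cells with a read separated the serpins into genes of most cells and genes of a few. Serpinf1 was read in 93.7% and 97.1% of young cells (exact binomial 95% intervals 88.3 to 97.1 and 91.8 to 99.4) and in 92.9% and 93.0% of old cells. In newborn cells it was read in 58.9% and 69.2% (50.8 to 66.6 and 58.7 to 78.5). Among cells with a read, its median level was 812.6 and 650 CPM in newborn cells, 4245 and 3843 CPM in young cells and 3695 and 2714 CPM in old cells. Both the share of cells and the level per cell with a read were thus lower in newborn cells.

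Serpina3n was read in 78.9% and 80.8% of cells (young) and 79.4% and 83.3% of cells (old). The shares of young and old cells lay within each other's intervals, while the median level among cells with a read was 1327 and 1035 CPM (young) and 1923 and 1407 CPM (old). The highest cell held 13510 CPM (old, experiment 1). In newborn cells 2.53% and 9.89% had a read, and no newborn cell had 10 reads or more. With every cell thinned to 100000 reads, the newborn shares were 0 and 1.10%.

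Serpina3c was read in fewer adult cells than Serpina3n, with higher shares in experiment 2 at both ages. It was read in 43.7% and 64.4% of young cells (35.4 to 52.2 and 54.4 to 73.6) and in 39.7% and 57.0% of old cells (31.1 to 48.8 and 47.4 to 66.2). Thinned to equal reads, the shares were 38.7% and 57.7% (young) and 37.3% and 51.8% (old). Among cells with a read the median was 671.9 and 740.9 CPM (young) and 1017 and 852.7 CPM (old). Newborn shares were 0 of 158 cells, which allows up to 1.90% of cells with a read by the limit of 3 counts and up to 2.31% by the exact interval, and 2.20% (2 of 91).

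Serpina3g was read in fewer cells, and its shares were higher in old than in young cells of both experiments. A read was found in 10.6% and 12.5% of young cells (6.03 to 16.8 and 6.83 to 20.4) and in 19.8% and 33.3% of old cells (13.3 to 27.9 and 24.8 to 42.8). Most young cells with a read had only 1 to 9 of them: 9 of 15 in experiment 1 and 7 of 13 in experiment 2, against 5 of 25 and 4 of 38 in old cells. Cells with 10 reads or more made up 4.23% and 5.77% of young cells (1.57 to 8.97 and 2.15 to 12.1) and 15.9% and 29.8% of old cells (9.97 to 23.4 and 21.6 to 39.1). In those cells the median level was 511.2 and 375.5 CPM (young) and 773.1 and 601.2 CPM (old). The 3 highest cells held at least 50% of all young reads in each experiment, so the young level rests on few cells. Of the 25 cells with 1 to 9 Serpina3g reads over both adult ages and experiments, 21 also held Serpina3n reads, which 78.9 to 83.3% of all adult cells did.

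In newborn cells 0 of 158 and 0 of 91 had a Serpina3g read, which allows shares of up to 1.90% and 3.3% by the limit of 3 counts, and of up to 2.31% and 3.97% by the exact interval. For Serpine2 the shares were 7.59% and 11% (newborn), 3.52% and 4.81% (young) and 6.35% and 4.39% (old), with intervals that overlap. All but 2 of its 45 cells with a read had 10 reads or more, and the median among cells with a read was 230 to 837.8 CPM by age and experiment. From 1 to 5 cells held 50% of its reads in each sum.

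**Figure D3:**
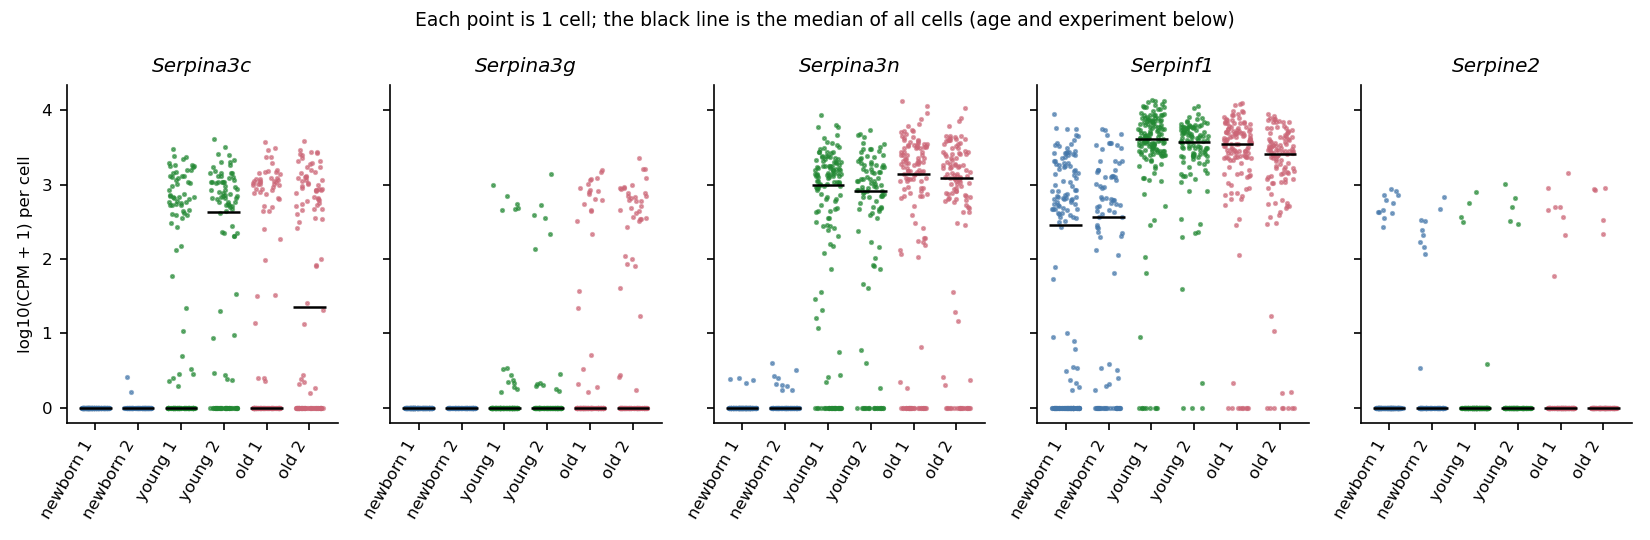
Level of each serpin in every kept cell, as log10(CPM + 1) without TMM factors, by age and experiment. Black lines are medians over all cells. Serpina3g and Serpine2 have medians at 0 everywhere, with separate clouds of high cells, while the medians of Serpina3n and Serpinf1 lie in the clouds of high adult cells.

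**Figure D4:**
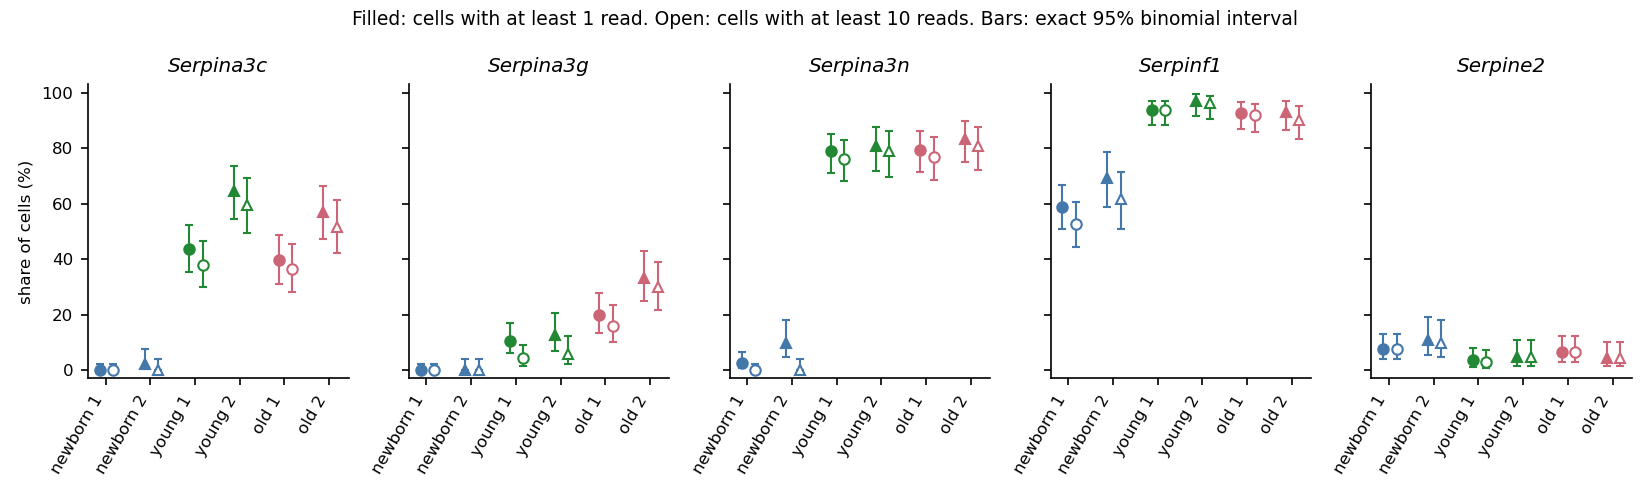
Share of cells with at least 1 read (filled) and at least 10 reads (open) of each serpin, in percent, with exact 95% binomial intervals. The shares of Serpina3g are 4.23% and 5.77% (young) and 15.9% and 29.8% (old) at 10 reads, below the filled symbols, and those of newborn Serpinf1 fall from 58.9% and 69.2% to 52.5% and 61.5%.

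Across cells of the same age and experiment the 5 serpins varied largely apart from each other. Spearman correlations of pairs in adult cells lay between -0.20 and 0.34. They are descriptions over 104 to 142 cells that share plates and depth, in sparse counts. The highest was that of Serpina3n and Serpinf1 in young cells of experiment 2 (0.34), but the same pair had 0.02 in young cells of experiment 1, 0.27 in old cells of experiment 1 and 0.09 in old cells of experiment 2. Serpina3c and Serpina3g were positively correlated in all 4 adult sets, at 0.19 and 0.17 (young) and 0.08 and 0.15 (old). With cells thinned to equal reads these values were 0.09 and 0.08 (young) and 0.06 and 0.15 (old). Serpina3g was read in 17.7% and 17.9% of young cells with a Serpina3c read and in 5.00% and 2.70% of those without. In old cells these shares were 24% and 40% against 17.1% and 24.5%. Counting only cells with 10 Serpina3g reads or more, the young cells were 4 of 62 and 6 of 67 with a Serpina3c read against 2 of 80 and 0 of 37 without, so most of the young cells behind these shares held 1 to 9 reads. The old cells were 9 of 50 and 24 of 65 against 11 of 76 and 10 of 49. Within cells that held reads of both genes, the correlation was negative in all 4 sets (-0.34, -0.36, -0.10 and -0.25 over 11, 12, 12 and 26 cells). Serpina3g and Serpina3n had no common direction, at 0.15 and 0.03 (young) and -0.04 and 0.02 (old).

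**Figure D5:**
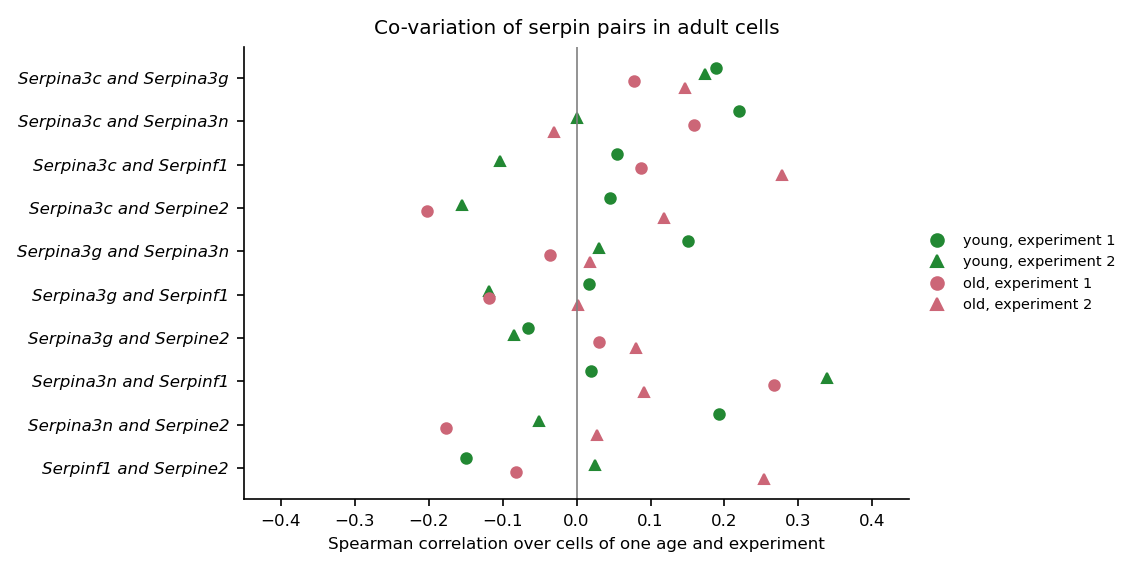
Spearman correlation of each pair of serpins over the cells of an adult age and experiment. All points lie between -0.20 and 0.34, and Serpina3c with Serpina3g and Serpina3n with Serpinf1 are the pairs of which all 4 points are above 0.

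Many adult cells held more than 1 of the 3 Serpina3 genes. None of them was read in 12.7% and 8.65% of cells (young) and 15.9% and 7.89% of cells (old), against 97.5% and 87.9% of newborn cells. All 3 were read in 7.75% and 8.65% of young cells and in 7.94% and 21.1% of old cells. Thinned to equal reads, these shares were 3.52% and 2.88% (young) and 5.56% and 20.2% (old), so the high share of old cells in experiment 2 remained.

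Genes had to be read in 10% or more of the cells of each adult set, which 3932 were; among them the genes most like each member were ranked by their smallest correlation over the 4 sets. Serpinf1 was most like Serping1, the complement C1 inhibitor (0.54 and 0.60 in young, 0.39 and 0.29 in old cells), then Gpx3, a secreted glutathione peroxidase (0.28 at least), and Gas6, a ligand of receptor kinases (0.24 at least). Serpina3n was most like Ccl8, a chemokine (0.28, 0.31, 0.36 and 0.26), then Serping1 (0.20 at least) and Lgals3, a galectin (0.18 at least). For the other 3 members the correlations were weaker. Serpina3g was followed by Rora, a nuclear receptor (0.16 at least), its paralog Serpina3h (0.14 at least) and Otulinl (0.13 at least). Serpina3h is annotated as a transcribed pseudogene and shares more stretches of 50 bases with Serpina3g than any other gene does. The part of shared sequence in this correlation was not tested. Serpina3c was followed by Rer1, Gm12034 and Aebp1 (0.11, 0.11 and 0.10 at least), and Serpine2 by Ccl2, Gid4 and Gm5513 (0.11, 0.10 and 0.09 at least). Serpine2 itself was read in only 5 to 8 cells of each adult set, below the 10% limit, so its correlations rest on few cells. Whether the highest of 3932 genes would reach such small values by chance was not tested.

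The neighbours of the Serpina3 members in the same gene cluster fell into several levels. Serpina3h had a mean of 36.4 ± 18.4 CPM in young and 16.2 ± 14.2 CPM in old cells, Serpina3i 21.9 ± 13.1 and 32.6 ± 37.7 CPM, and Serpina3m 29.8 ± 4.36 and 7.01 ± 9.89 CPM (SD, n = 2). Their newborn means were at most 0.237 CPM, and edgeR called none of them in any comparison. Serpina3m was read in 8.45% and 9.62% of cells (young) and 0.794% and 7.02% of cells (old). Serpina3f, Serpina3a and Serpina3j had at most 0.205 CPM. Their reads came 1 to 5 to a cell: Serpina3f was read in 21 young and 31 old cells, of which 19 and 30 also held Serpina3n reads. All 10 young and 12 old cells with Serpina3a reads, and all 4 young and 17 old cells with Serpina3j reads, held Serpina3n reads, which 78.9 to 83.3% of all adult cells did. Of the cells with Serpina3h reads 37 of 42 (young) and 30 of 37 (old) held them, and of those with Serpina3i reads 24 of 27 and 11 of 16. The part of shared sequence in these low counts was not tested.

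Of 63 serpin genes other than the 3 Serpina3 members, Serpinf1 and Serpine2, 21 passed the filter on low counts. In each comparison with newborn cells 1 of the 21 was called higher, Serping1, and none lower. Of all genes tested 0.719% (young) and 0.797% (old) were called higher. At an unadjusted p under 0.05, edgeR listed 11 (young) and 10 (old) of the 21 against newborn. These were 52.38% and 47.62% of them, against 13.27% and 15.21% of all genes tested. Their median log2 fold change was 3.22 (young) and 3.31 (old), against -0.07 and -0.08 over all genes. Several had no newborn read, where a fitted fold change depends on the prior count. Between young and old cells edgeR called 0 of the 21, with 0 at an unadjusted p under 0.05, DESeq2 called 2 and limma 0. Of all 16684 genes, 810 were under that unadjusted p and DESeq2 called 1048. Serpinb6a, an intracellular serpin, had 157.5 ± 21.4 CPM (newborn), 604.2 ± 44.6 CPM (young) and 547.4 ± 149.4 CPM (old), and did not pass (adjusted p = 0.0757 and 0.0784 against newborn by edgeR). Serpinb1a, an inhibitor of neutrophil proteases, had 15.2 ± 4.33, 125.3 ± 35.0 and 134.8 ± 41.3 CPM (adjusted p = 0.0756 and 0.0655 by edgeR). Serpinb9, an inhibitor of granzyme B, had 4.40 ± 5.69, 24.6 ± 13.2 and 58.1 ± 0.334 CPM. Serpinb8 had 8.51 ± 7.43, 52.6 ± 69.2 and 30.0 ± 22.2 CPM. Neither Serpinb9 nor Serpinb8 passed in any comparison.

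Of 25 genes that encode proteases, receptors and partners of these serpins, 15 were tested and 1 was called, Ctsk, a collagen-cutting lysosomal cysteine protease. Of all genes tested, 0.779% (young) and 0.935% (old) were called against newborn cells. Ctsk had 332.4 ± 40.4 CPM (newborn), 2621 ± 184.5 CPM (young) and 1438 ± 118.6 CPM (old). It rose by 2.98 ± 0.20 on the log2 scale in young against newborn cells (adjusted p = 0.0105 by edgeR, 0.0505 with the experiment as a block). In old against newborn cells it rose by 2.11 ± 0.20 (adjusted p = 0.0233, and 0.0646 with the block). The median log2 fold change of the 15 was 0.45 and 0.17 in these comparisons, against -0.07 and -0.08 over all genes. The cathepsins Ctsb and Ctsl had 998.6 and 531.8 CPM in newborn, 2347 and 2304 (young) and 1968 and 2199 (old), and did not pass. Htra1, a secreted serine protease, had 765.2, 1048 and 863 CPM. Lrp1, which takes up serpin and protease complexes, had 84.3, 295.1 and 280.2 CPM, and Rpsa, a laminin receptor that binds PEDF, 240.4, 188 and 194.3 CPM, also without passing.

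Of 19 other inhibitors of extracellular and lysosomal proteases 15 were tested. Against newborn, 2 were called higher at both adult ages: Serping1 and Timp2, an inhibitor of matrix metalloproteases. The share called higher among all genes tested was 0.719% (young) and 0.797% (old). Timp2 had 169.3 ± 3.97 CPM (newborn), 849.9 ± 93.9 CPM (young) and 1043 ± 136.1 CPM (old). Its log2 fold change was 2.33 ± 0.21 in young (adjusted p = 0.0243 by edgeR, 0.0505 with the block) and 2.62 ± 0.21 in old cells (adjusted p = 0.0183, and 0.0407 with the block). Cst3, Cstb and Timp3 were at 419.9, 162.4 and 53.4 CPM in newborn and at 1614, 334.1 and 515.9 CPM in old cells, and did not pass. Itih5 had 819.7 CPM in newborn against 25.4 in young and 11 in old cells, with an adjusted p of 0.511 and 0.382 by edgeR. The list's median log2 fold change was 0.74 in young and 1.04 in old against newborn cells, against -0.07 and -0.08 over all genes.

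Lists of genes of signals known to act on Serpina3 genes were read beside them. Of 18 acute phase and cytokine signalling genes 14 were tested and edgeR called 0 in each comparison. At an unadjusted p under 0.05 it listed 8 against newborn at each adult age and 1 between young and old cells, DESeq2 called the same numbers, and limma on per-cell means 1, 2 and 0. Of all genes tested, 13.3% (young) and 15.2% (old) were under that unadjusted p against newborn cells, and 4.85% between young and old cells. The median log2 fold change of the 14 genes was 1.37 in young and 1.53 in old against newborn cells, against -0.07 and -0.08 over all genes. Nfkbia, the inhibitor of NF-kB, had 1022, 2576 and 2214 CPM in newborn, young and old cells, Il6st, a chain of the interleukin-6 receptor, 51.8, 151.8 and 175.6 CPM, and Socs3, a feedback inhibitor of JAK and STAT signalling, 65.2, 172.1 and 165.9 CPM.

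All 13 genes of a list of interferon gamma response genes were tested. In young against newborn cells 3 were called higher, and in old against newborn cells 4, against 0.719% and 0.797% of all genes tested. The medians were 2.55 and 2.37 on the log2 scale, against -0.07 and -0.08 over all genes. Psmb8, an immunoproteasome subunit, had 5.10, 382.2 and 530 CPM in newborn, young and old cells (log2 fold change 6.23 ± 0.35 and 6.70 ± 0.36, adjusted p = 0.00961 and 0.00784 by edgeR, 0.0505 and 0.0407 with the block). Gbp2, an interferon-induced GTPase, had 3.32, 158.4 and 210 CPM, and B2m, the light chain of MHC class I, 531.4, 5642 and 9923 CPM. Both were called against newborn at both adult ages, with adjusted p-values of 0.00784 to 0.0198 by edgeR and of 0.0407 to 0.0505 with the block. Iigp1, another GTPase, was called in old against newborn cells only (adjusted p = 0.0405 by edgeR, 0.058 with the block), and the difference between the comparisons was not tested.

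All 8 genes of a list of glucocorticoid response genes were tested, and edgeR called 0 in each comparison. At an unadjusted p under 0.05 it listed 3, 0 and 2 (young against newborn, old against young, old against newborn). Of all genes tested, 13.27%, 4.855% and 15.21% were under that p. DESeq2 called the same numbers of the 8 genes and limma 0. Dusp1, a phosphatase, had 2647, 5123 and 3670 CPM in newborn, young and old cells, and Nr3c1, the glucocorticoid receptor, 48.0, 111.3 and 107.2 CPM. Between young and old cells edgeR called no gene of any of these lists. At an unadjusted p under 0.05 it listed 2 of the targets and receptors, 0 of the other inhibitors and 1 of the interferon gamma genes. There DESeq2 called 2, 1 and 1 and limma 0. Of all 16684 genes tested, 810 were under that unadjusted p and DESeq2 called 1048. The members and the lists were compared with newborn cells through the same sums, so their values stand side by side and are not independent.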

How the data were processed

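Smart-seq2 libraries of sorted skin fibroblasts were read at 3 ages. The authors deposited 1 table of raw read counts per gene and well for each plate; the submitters' processing notes name GRCm38 and FastQC, while the aligner, counter, strand setting and treatment of shared reads stand as not given in the sources used here. Of the values above 0, 74.85% were even numbers (all of those of Serpinf1 and Serpine2, and 73.6% of those of Serpina3g).

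The labels held 1049 columns, of which 5 had no values. Plates deposited as 2 runs of the same wells (183 wells) were added. Genes common to both annotations used were kept (51777; 908 were left out), with symbols for 51633 from GENCODE M21. Kept cells had 50000 reads or more, 1000 detected genes or more and a mitochondrial share of up to 25%. Ages were compared over 6 sums with edgeR 4.0.16 in R 4.3.3 (TMM, filterByExpr, robust quasi-likelihood fit with age as its term, threshold 0.05; common coefficient of variation 1.13, 3 residual degrees of freedom). In a test on simulated data for young against newborn over 16586 genes, 3 of 50 genes changed 2-fold, 38 of 50 changed 4-fold, and all 50 each of those changed 16-fold and 64-fold were recovered. The simulated counts had a smaller spread than the data, so these numbers check the code and do not give the power reached here. DESeq2 1.42.0 and limma 3.58.1 were alternatives, beside other filters, thinning to 100000 reads and leaving out each sum. Experiment numbers mark a batch shared by the ages; deviations from the age means correlated at -0.00017, 0.0107 and 0.0125 over 16684 genes, and the fit with the experiment as a block was an alternative. Shares, plate values and correlations over cells carry no test. Coding sequences and promoters were aligned with mafft 7.526. Promoters came from RefSeq for all 5 members, and proteins were not used here.

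The members and lists were chosen with earlier results of these data known. Named genes were the members, other serpins of at least 10 CPM, up to 6 genes of a list by level (called or at least 50 CPM), and the 3 genes most like each member. Reads are not molecules, so intervals and the floor of 3 reads cover counting error only.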

Additional observations from a re-analysis of the deposited data

Results flagged for a closer look

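The level of each member was looked at by plate in 27 groups of 4 or 5 plates, and 2 groups held a plate far from the others. With normally distributed values chance alone gives about 1 such group in 20. That rate does not apply to groups with many plates at 0. For Serpina3c in newborn cells of experiment 2, a plate had 0.1215 CPM and the others 0, so any value above 0 would have been flagged. This plate held 2 cells with a read of the gene. For Serpina3c in old cells of experiment 2, a plate had 379.4 CPM, and the nearest of the others 616.5 CPM; its young cells had 548.5 CPM, and its old cells had the highest Serpina3g level of all plates (348.3 CPM).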

How the results depend on the processing

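With the experiment as a replicate block the log2 fold changes in young against newborn cells were 15.51 (Serpina3c), 15.07 (Serpina3g), 13.92 (Serpina3n) and 2.71 (Serpinf1), and in old against newborn cells 15.28, 17.78, 14.40 and 2.22; all 8 calls were lost, with adjusted p-values of 0.0505 to 0.0932, and the genes called fell from 130 to 25 and from 156 to 51. Leaving out a sum gave 14.29 to 19.54, 14.98 to 15.14, 13.12 to 15.10 and 2.58 to 2.85 in young and 14.05 to 19.29, 17.21 to 18.33, 13.60 to 15.57 and 1.99 to 2.47 in old against newborn cells for these 4 genes; without an old or a young sum, no gene was called in young against newborn cells. A lone sum of an age is assumed to vary like the other ages. Per-cell means by limma ended the Serpina3g call in young against newborn cells (0.51 and 0.29 with pseudocounts of 1 and 10), and thinning raised the genes called to 287 and 322. DESeq2 called 2380, 1048 and 2850 genes in the 3 comparisons and limma 1092, 0 and 1414 with a pseudocount of 1. Serpina3g in old against young cells passed with DESeq2 only (2.80). The sign of Serpine2 turned in young against newborn cells when cells were thinned (-0.35) and with limma (-0.40 and -0.24), in old against young cells with only the first run of each well (-0.01), and in old against newborn cells with limma (-0.28 and -0.16). Leaving out a sum gave -0.50 to 1.01, -0.45 to 0.96 and -0.03 to 1.10 for Serpine2 in these comparisons. Serpina3c in old against young cells ran from -0.53 to 0.12 and turned only without the young sum of experiment 2. No sign of any other member turned under the alternatives run. The cause of these changes was not tested, apart from the smaller samples that leaving out a sum leaves. Of the shares, correlations and counts of called genes under alternatives, 170 stayed within their interval (shares), 0.1 (correlations) or 1.5 times (counts), and 74 did not. The newborn values of the Serpina3 genes rest on 0 to 30 reads, which limits how exactly their fold changes are known. The newborn sums held 171717204 and 119682449 reads, against 151799592 to 195324769 in the adult sums.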
